A study of Homo sapiens with 4 samples.

Results

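Genes of the proteasome were examined in 2 control samples and 2 samples treated with berberine, a plant alkaloid. Members were chosen by name alone: every gene symbol of the probe annotation that begins with PSM, a letter from A to G and a number. The pattern took 47 of the 17778 named genes on the array. One of them, PSMC3IP, encodes a cofactor of meiotic recombination and is no proteasome gene, which leaves 46 members measured by 50 probes. They are 7 alpha subunits and 10 beta subunits of the core (17 genes), 6 ATPases and 14 other genes of the cap (20 genes), 4 activators, 1 inhibitor and 4 assembly factors. The human RefSeq annotation (GRCh38.p14) lists 48 protein-coding symbols of this form, and the 2 with no probe named here are PSMA3 and PSMB3.

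The cells are labelled HepG2, a line from a human liver carcinoma. Controls had no berberine, and treated cells had 26.95 µM for 24 hours. A description field instead tells of a differentiation cocktail, named MDI, for 48 hours in all 4 samples, with 13.47 µM berberine in the treated ones, and the conflict was not resolved. Nothing in the labels says that replicates are separate cultures, so p-values speak only of the spread among these arrays, part or all of which may be technical. Every probe belongs to a mouse design, and a gene name below stands for the signal of such a probe. Median deposited intensity ranged from 62 to 90 over the samples, and 4 arrays limit the precision. Of 8 measured hepatocyte markers, RBP4 was the 1 with a mean above 9.24, which is the level that 95 percent of the 528 genes named for mouse olfactory receptors stay under on the log2 scale and which served as the background reference. RBP4, the plasma carrier of retinol, was lower in both berberine samples, at a log2 fold change of -1.08 (limma adjusted p = 0.132, and 0.025 with an intensity trend in the variance model). With any 1 sample left out, 0 of all genes passed either fit. AFP, a fetal plasma protein typical of HepG2 cells, had a probe that read 4.51 to 4.93 on that scale. Of the 8 hepatocyte markers, 4 had a log2 fold change above 0 and 4 below, with a median of -0.031. None of the 30 measured markers of adipocytes, fibroblasts, macrophages, lymphocytes and endothelial cells had a mean above the reference. In single samples CD2 read 9.29 and 9.30 in the controls and CD79A 10.67 in control 2, which lay above it. The 5 lymphocyte markers among the 30 had a mean level of 7.37 and 7.55 in the controls and 6.97 and 6.91 in the berberine samples. All 5 log2 fold changes were below 0, from -0.031 for MS4A1 to -1.54 for CD79A, and 0 passed the limma test. On values as deposited CD3E was at 0.19 and MS4A1 at 0.11, while CD79A, CD2 and CD3G stayed below 0. Adipocyte markers lay on both sides of 0, from -1.20 for RETN to 1.00 for FABP4. The part of these markers in the proteasome values was not tested.

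The proteasome degrades proteins that carry ubiquitin chains. Its core is a barrel of stacked rings: alpha subunits form the outer rings and gate the entrance, and beta subunits form the inner rings, where PSMB5, PSMB6 and PSMB7 hold the active sites. The cap binds the core, recognizes ubiquitin, removes it and unfolds the substrate with a ring of ATPases. When proteasome activity is short, the transcription factor NFE2L1 is known to raise many subunit genes together through antioxidant response elements in their promoters. Inflammatory signals such as interferon gamma are known to induce PSMB8, PSMB9 and PSMB10, which replace the standard active subunits.

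Promoter letters are shown for the members whose limma p was smallest, although none had a limma adjusted p under 0.05. RefSeq windows (GRCh38.p14) of 300 bases, from 250 before to 50 after the start of the gene, were on hand for 40 of the 46 members. The core of the antioxidant response element was searched as TGACNNNGC on both strands. It was found for 14 of the 40 members (35.0%), and for 16.1% of all 27305 genes with a window. Some genes have several windows. Of the 49 windows of members 14 held it, and of all 35116 windows 13.3% did. By class, 3 of 4 activators, 5 of 13 cap genes other than ATPases, 2 of 6 ATPases, 2 of 3 assembly factors, 1 of 6 alpha and 1 of 7 beta genes held a match. A match is a description of letters and not of binding. The part of the element in the differences was not tested.

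The members with an unadjusted limma p under 0.05 were PSMD12, PSMC4, PSMB7, PSME4 and PSMD1. The 4 of them with a window each held 1 match, 2 with higher and 2 with lower values under berberine. Below, the 250 bases before the start are given 5′ to 3′ on the strand of the gene, with the match in capitals. The stretches lie at chr17:67366578-67366827 (PSMD12, minus strand), chr2:53970994-53971243 (PSME4, minus strand), chr19:39970915-39971164 (PSMC4, plus strand) and chr2:231056617-231056866 (PSMD1, plus strand).
PSMD12: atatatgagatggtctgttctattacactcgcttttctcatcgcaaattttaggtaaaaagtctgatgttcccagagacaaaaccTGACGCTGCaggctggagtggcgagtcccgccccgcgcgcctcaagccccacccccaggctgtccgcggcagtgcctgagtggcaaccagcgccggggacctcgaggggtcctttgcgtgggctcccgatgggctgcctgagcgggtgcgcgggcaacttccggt
PSME4: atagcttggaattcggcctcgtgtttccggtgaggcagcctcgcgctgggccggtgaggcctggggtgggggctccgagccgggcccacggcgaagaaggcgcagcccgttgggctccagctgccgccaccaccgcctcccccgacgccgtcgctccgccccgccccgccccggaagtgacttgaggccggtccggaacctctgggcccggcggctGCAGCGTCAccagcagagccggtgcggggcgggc
PSMC4: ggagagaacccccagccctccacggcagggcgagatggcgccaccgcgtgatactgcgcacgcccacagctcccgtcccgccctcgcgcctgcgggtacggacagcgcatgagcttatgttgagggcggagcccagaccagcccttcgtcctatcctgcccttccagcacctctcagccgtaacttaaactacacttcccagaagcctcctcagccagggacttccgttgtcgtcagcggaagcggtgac
PSMD1: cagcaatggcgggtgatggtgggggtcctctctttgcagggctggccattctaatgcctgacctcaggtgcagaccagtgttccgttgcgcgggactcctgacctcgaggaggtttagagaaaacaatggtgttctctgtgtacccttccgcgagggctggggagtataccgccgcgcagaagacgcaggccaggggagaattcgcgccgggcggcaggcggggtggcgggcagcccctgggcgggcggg
In PSMC4 and PSMD1 the match lies after the start, at bases 28 to 36 and 40 to 48, and these shorter stretches hold it in capitals (chr19:39971182-39971210 and chr2:231056896-231056916, plus strand).
PSMC4 match: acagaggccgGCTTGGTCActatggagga
PSMD1 match: aggaggcgacTGACTGAGCag
The match stood on the strand opposite to the gene in PSMC4 and PSME4. The median log2 fold change was -0.11 over the 14 members with a match and -0.03 over the 26 without. The CCAAT box (CCAAT, both strands) was found for 18 of the 40 members (45.0%) and 39.7% of all genes with a window, and for none of these 4. The median log2 fold change was -0.11 over the 18 members with a CCAAT box and 0.01 over the 22 without. Neither contrast of medians was tested.

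Berberine and control samples were compared to ask whether transcripts of the proteasome differed. No member passed the test: 0 of 46 had a limma adjusted p under 0.05, where 0.0506% of all genes did. With an intensity trend in the variance model, which suits bright probes, 0 of 46 passed as well, where 1.46% of all genes did. At an unadjusted limma p under 0.05 there were 5 members (10.9%) in the first fit and 7 (15.2%) with the trend, and these shares lie near the 13.0% and 14.7% of all genes. The first count was 0 on values as deposited, where 494 of all 17778 genes had such a p. It was 10 after median centring, where 2247 of all genes did. Of the 46 log2 fold changes, 19 were above 0 and 27 below, from -0.66 for PSMB5 to 0.85 for PSMD12. Their median was -0.079 on quantile normalized values, -0.022 on values as deposited and -0.14 after median centring. Over all genes those medians were -0.0091, 0.079 and -0.034.

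**Figure D1:**
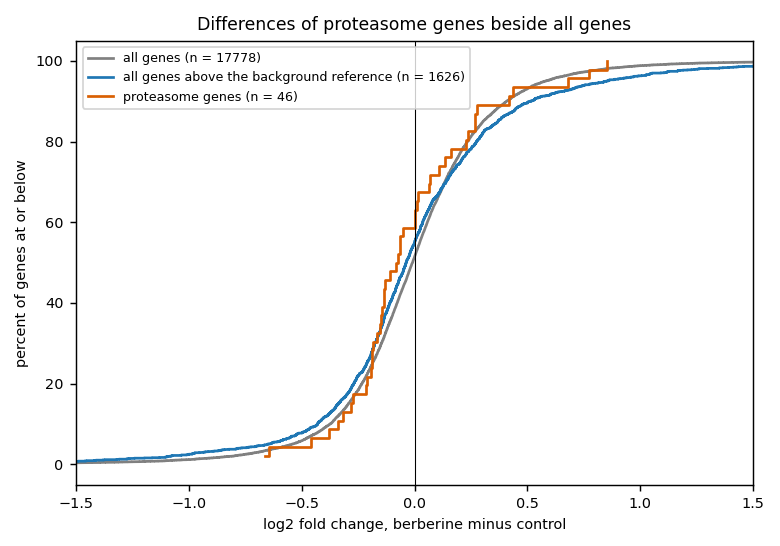
The horizontal axis gives the log2 fold change (berberine minus control) and the vertical axis the percent of genes at or below it, for the 46 proteasome genes, all 17778 genes and the 1626 genes with a mean above the background reference. The proteasome curve runs close to the other curves, with its middle values from -0.19 to 0.13 (25th to 75th percentile) against -0.19 to 0.18 for all genes.

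The groups did not overlap for 18 of the 46 members (39.1%), 8 with both berberine samples higher and 10 with both lower. The background for all genes was 45.0%, with 21.7% higher and 23.3% lower. Of the 11 members above the background reference, 8 did not overlap (72.7%), where 69.4% of all 1626 genes above it did not. Of these 11, 4 had an unadjusted limma p under 0.05 (36.4%, background 27.9%) and 5 with the trend (45.5%, background 41.2%). None passed the trend fit after adjustment, where 8.24% of genes above the reference did. With 1 sample left out a group is a single value and overlaps less often. The count of members that did not overlap was then 34 without control 1, 33 without control 2, 33 without berberine 1 and 28 without berberine 2. Of all 17778 genes, 12810, 13251, 12210 and 12602 did not overlap, in the same order. With all 4 samples, 14 of the 46 members did not overlap on values as deposited and 23 after median centring. Of all 17778 genes, 4279 and 8403 did not, so under both scalings the share of members lay above that of all genes. The count of members above the reference was itself 23.9%, against 9.15% of all genes. None of the 4 assembly factors, nor the inhibitor PSMF1, lay above it.

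The precision can be read from the intervals. For 35 of the 46 members (76.1%) the 95% limma interval of the log2 fold change lay within a 2-fold change in either direction, as it did for 79.6% of all genes. Each interval stands for 1 gene and is not adjusted for the number of genes. For the other 11 members at least 1 end of the interval lay beyond 2-fold. SEs ranged from 0.105 for PSMB9 to 1.03 for PSMA8. An exact permutation test of 1 gene in this design cannot go below 0.33.

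**Figure D2:**
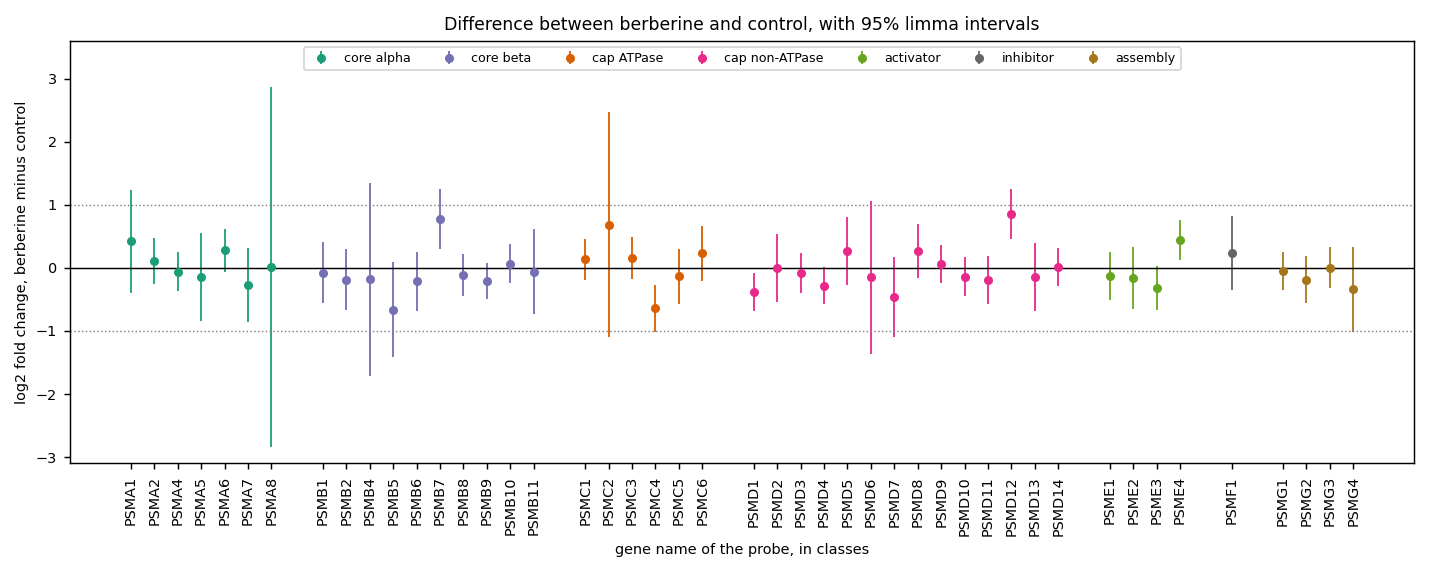
Each point is the log2 fold change (berberine minus control, quantile normalized log2 values) of 1 proteasome gene and each bar its 95% limma interval, with genes in classes along the horizontal axis and dotted lines at a 2-fold change. Most bars cross 0, and those of PSMB7, PSMD12 and PSME4 above it and PSMC4 and PSMD1 below it do not.

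The alpha ring of the core showed no common direction. Of 7 alpha genes, 4 were above 0 and 3 below, with a median log2 fold change of 0.015 and 0 past the test. PSMA6, whose product is a ring subunit, read 10.25 and 10.20 in the controls and 10.59 and 10.42 in the berberine samples on the normalized log2 scale, here and below with replicate 1 before replicate 2. Both berberine samples lay above both controls, at a log2 fold change of 0.28 with a 95% interval of -0.061 to 0.62 (limma adjusted p = 0.434), which was 0.013 on values as deposited and -0.10 after median centring. PSMA4, the other alpha gene above the reference, was at -0.065 with an interval of -0.37 to 0.24. PSMA1 was at 0.42, with berberine 2 at 9.56 and the other samples from 8.70 to 8.81. Berberine 1, at 8.79, lay between the controls. PSMA2 was at 0.11, PSMA7 at -0.27 and the dim PSMA5 at -0.15, the last turning to 1.01 on values as deposited, where control 2 read an intensity of 4 and the other samples 28 to 42.

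PSMA8 encodes an alpha subunit of the testis. Its probe read 5.44 and 7.67 in the controls and 5.63 and 7.51 in the berberine samples. The samples numbered 2 were high in both groups and those numbered 1 low, so the group means differed by 0.015 (berberine minus control) with an SE of 1.03. PSMB4, of the beta ring, had the same order, with 5.94 and 6.61 in the controls and 5.40 and 6.78 in the berberine samples. In PSMC2, of the ATPase ring, control 1 read 6.28 and the other samples 7.81 to 8.08. In PSMD6, of the lid of the cap, berberine 1 read 4.49 and berberine 2 5.65. These 4 members were the ones with replicates more than 1 log2 unit apart, and the other 42 had closer replicates.

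**Figure D3:**
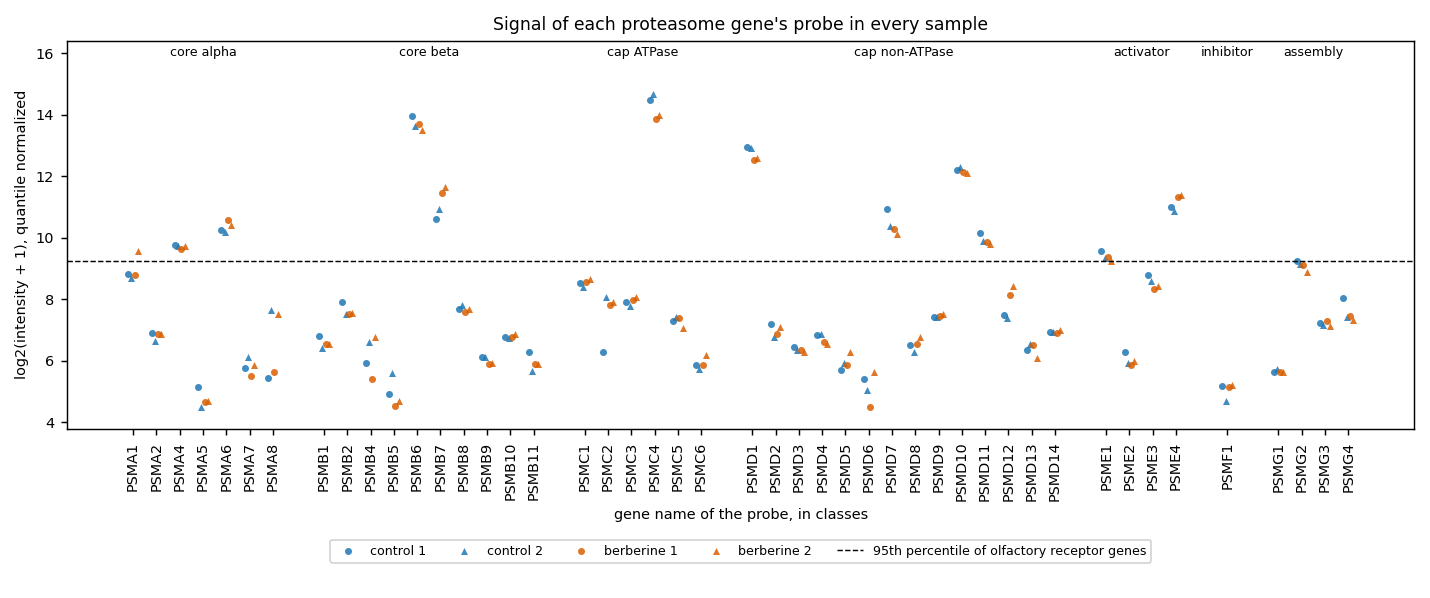
Each symbol is the quantile normalized log2(intensity + 1) of 1 proteasome gene in 1 sample, with controls in blue and berberine samples in orange, circles for replicate 1 and triangles for replicate 2, and a dashed line at the background reference. The 4 symbols of most genes lie close together, and those of PSMA8, PSMB4, PSMC2 and PSMD6 are spread, while levels of different probes are not comparable with each other.

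The standard active subunits of the beta ring differed in sign. PSMB7, which holds the trypsin-like site, had deposited intensities of 1820 and 1934 in the controls and 2397 and 3191 in the berberine samples. On the normalized log2 scale these were 10.61, 10.94, 11.44 and 11.65, so both berberine samples were higher. The difference was 1.71-fold, a log2 fold change of 0.77 with a 95% interval of 0.29 to 1.25 (limma adjusted p = 0.262, and 0.104 with the trend). PSMB6, which holds the caspase-like site, read 13.96, 13.64, 13.68 and 13.49 in the same order of samples. Its groups overlapped on that scale and it was at -0.21 (interval -0.68 to 0.25). On the deposited scale both berberine samples were lower, berberine 2 barely so, with 18243 and 11915 in the controls and 11251 and 11913 in the berberine samples. PSMB5, which holds the chymotrypsin-like site, was at -0.66 (interval -1.42 to 0.089). It was at -0.34 on values as deposited and -0.46 after median centring, and ranged from -1.01 to -0.32 with each sample left out. Its probe was dim, with deposited intensities of 40 and 32 in the controls and 28 in both berberine samples.

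The remaining beta genes lay nearer to 0. The ring subunits PSMB1, PSMB2 and PSMB4 were at -0.074, -0.19 and -0.18, with overlapping groups. Both probes of PSMB1 gave small differences, -0.074 and -0.094, and the first was 0.0062 on values as deposited. Among the inducible subunits, PSMB8 was at -0.11 (interval -0.44 to 0.22), PSMB9 at -0.21 (interval -0.50 to 0.080) and PSMB10 at 0.067 (interval -0.24 to 0.38). PSMB9 read 6.11 and 6.14 in the controls and 5.91 and 5.92 in the berberine samples, which is close to the median of 6.05 for olfactory receptor genes. PSMB11, the subunit of the thymus, was at -0.063. Over the 10 beta genes the median was -0.15, with 2 above 0, 8 below and 0 past the test.

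The ATPase ring of the cap held the member with the smallest adjusted p in the trend fit. PSMC4 had deposited intensities of 25470 and 22065 in the controls and 12966 and 16467 in the berberine samples. The normalized log2 values were 14.46 and 14.67 against 13.87 and 13.98, so both berberine samples were lower. The difference was 1.56-fold, a log2 fold change of -0.64 with an interval of -1.01 to -0.28 (limma adjusted p = 0.243, and 0.0629 with the trend). It kept its sign on values as deposited (-0.70) and after median centring (-0.81). No other ATPase was above the background reference. PSMC1 at 0.13 and PSMC3 at 0.16 had both berberine samples higher on the normalized scale. After median centring they were at -0.16 and -0.081, and PSMC1 was at -0.045 on values as deposited. PSMC6 was at 0.23, PSMC5 at -0.14 and PSMC2 at 0.68, with overlapping groups. The median over the 6 ATPases was 0.15, with 4 above 0, and it turned to -0.0067 on values as deposited and to -0.12 after median centring.

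**Figure D4:**
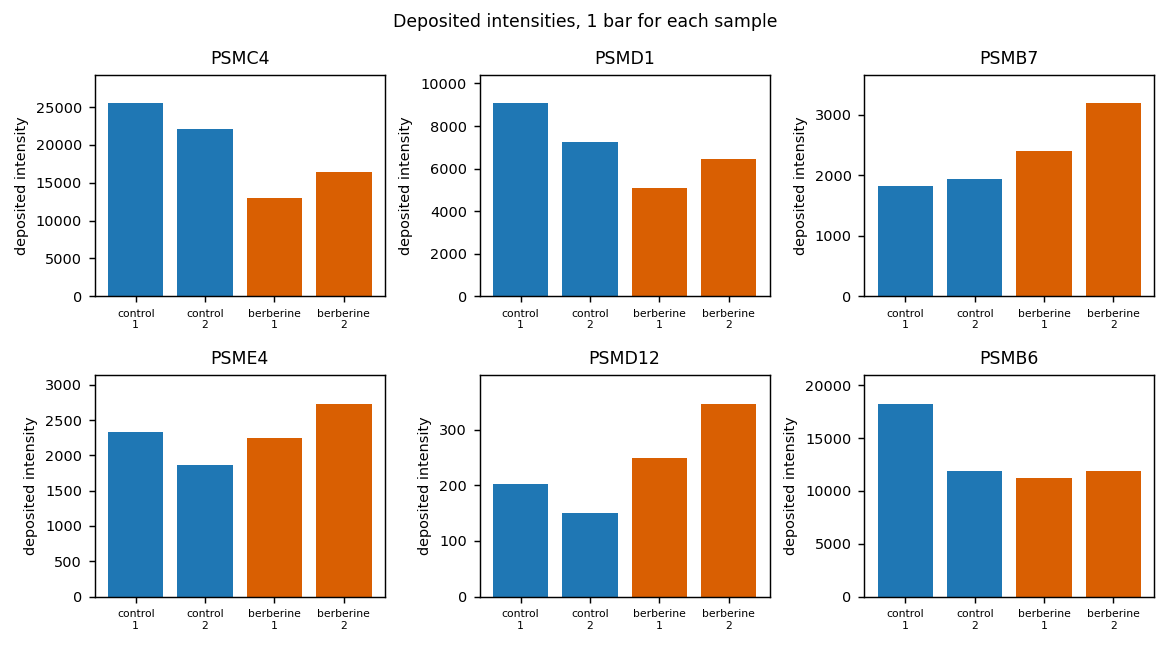
Each bar is the deposited intensity of 1 probe in 1 sample, on an axis that starts at 0, with controls in blue and berberine samples in orange. Both berberine bars are lower than both control bars for PSMC4, PSMD1 and, before normalization, PSMB6, both are higher for PSMB7 and PSMD12, and those of PSME4 overlap the controls.

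Among the other cap genes, the lid and base subunits with the smallest p-values lay on opposite sides of 0. PSMD12, a scaffold subunit of the lid, had deposited intensities of 202 and 151 in the controls and 249 and 347 in the berberine samples. Both berberine values were higher, and the normalized log2 values were 7.48 and 7.39 against 8.15 and 8.42. The difference was 1.81-fold, a log2 fold change of 0.85 with an interval of 0.45 to 1.25 (limma adjusted p = 0.191, and 0.0685 with the trend). Its mean of 7.86 lay below the background reference. PSMD1, the large scaffold of the base, read 12.95 and 12.91 in the controls and 12.52 and 12.59 in the berberine samples. Both berberine samples were lower, by a log2 fold change of -0.38 with an interval of -0.68 to -0.079 (limma adjusted p = 0.323, and 0.088 with the trend).

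The ubiquitin receptor of the base, PSMD4, was at -0.28 with both berberine samples lower, and the scaffold PSMD2 was at 0.0014. In the lid, PSMD7 was at -0.46 (interval -1.09 to 0.18) and PSMD11 at -0.19, both above the reference and both lower in both berberine samples. PSMD14, the enzyme that removes ubiquitin chains, was at 0.013 with an interval of -0.29 to 0.31. PSMD3, PSMD6 and PSMD13 were at -0.084, -0.15 and -0.14, with overlapping groups, and PSMD6 turned to 0.57 on values as deposited. PSMD8 had probes that disagreed, at 0.27 for the brighter and -0.55 for the dimmer, both below the reference. Its brighter probe read 6.51 and 6.30 in the controls and 6.55 and 6.79 in the berberine samples, and its dimmer one 5.62 and 5.38 against 5.04 and 4.86. The name PSMD8 therefore gave no single direction.

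PSMD5, PSMD9 and PSMD10 encode chaperones that help to build the base and leave the finished cap. PSMD10 read 12.21 and 12.30 in the controls and 12.15 and 12.09 in the berberine samples, at -0.14 with an interval of -0.45 to 0.17. Its dim second probe was at -0.22. PSMD5 was at 0.27 and PSMD9 at 0.062. Over all 14 cap genes other than ATPases the median was -0.11, with 6 above 0, 8 below and 0 past the test, and it was -0.0053 on values as deposited.

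The activators bind the ends of the core in place of the cap. PSME4, a large activator that needs no ubiquitin, had normalized log2 values of 10.99 and 10.86 in the controls and 11.34 and 11.38 in the berberine samples. Both berberine samples were higher, by a log2 fold change of 0.44 with an interval of 0.12 to 0.75 (limma adjusted p = 0.304, and 0.097 with the trend). On the deposited scale the groups overlapped, with 2335 and 1864 in the controls and 2243 and 2732 in the berberine samples, and the log2 fold change was 0.25. The nuclear activator PSME3 was at -0.32 (interval -0.67 to 0.037), with 8.79 and 8.60 in the controls and 8.34 and 8.42 in the berberine samples. PSME1 and PSME2, which form 1 activator ring together, were at -0.13 and -0.17 with overlapping groups, the latter 0.0094 on values as deposited. The median over the 4 activators was -0.15. PSMF1, which encodes an inhibitor of the core, was at 0.24 (interval -0.34 to 0.82) from a dim probe with a mean of 5.06.

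PSMG1 to PSMG4 encode chaperones that place the subunits of the core rings. PSMG2 read 9.24 and 9.15 in the controls and 9.11 and 8.89 in the berberine samples. Both berberine samples were lower, by a log2 fold change of -0.19 with an interval of -0.57 to 0.18 (limma adjusted p = 0.591). PSMG4 was at -0.34 with its brighter probe and -0.19 with its dimmer one. Control 1 stood apart on the brighter probe, at 8.03 against 7.31 to 7.47 elsewhere, and the difference was -0.036 without control 1 and -0.64 without control 2. PSMG1 was at -0.049, turning to 0.20 on values as deposited, and PSMG3 at 0.0032. The median over the 4 was -0.12, and 0 passed the test.

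Core and cap were set side by side. The 17 core genes had a median log2 fold change of -0.074 and the 20 cap genes of -0.041, and the groups did not overlap for 4 core genes (23.5%) and 11 cap genes (55.0%), where 45.0% of all genes did not. The share in the core was below that background and the share in the cap above it, and the difference between core and cap was not tested. For each class the members' middle deviation from their own means was taken in every sample. Over the core it was -0.012 and -0.055 in the controls and -0.088 and 0.020 in the berberine samples. Over the cap it was 0.0033 and -0.032 in the controls and -0.036 and 0.057 in the berberine samples. The berberine samples lay on both sides of the controls in core and cap alike.

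The way the arrays were scaled turned the sign of dim members more than of bright ones, and it also moved the median of the bright ones. Against the quantile normalized value, 11 of the 46 members changed sign on values as deposited and 13 after median centring, 16 in one or the other. Of the 11 members above the background reference 1 did so, PSMA6. For these 11 the median was -0.14, and it was -0.35 on values as deposited and -0.46 after median centring. All genes above the reference moved in the same way, from -0.037 to -0.26 and -0.38. For the 35 members not above the reference the median was -0.063, and it was 0.0094 on values as deposited and -0.10 after median centring.

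**Figure D5:**
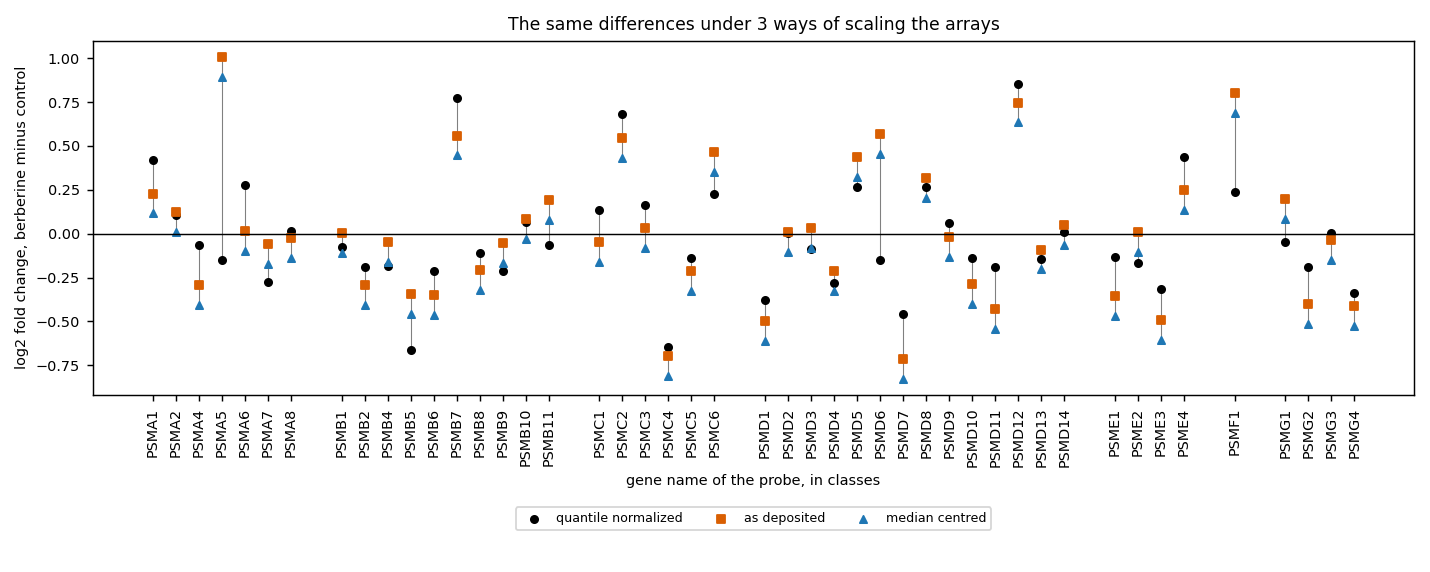
Each symbol is the log2 fold change (berberine minus control) of 1 proteasome gene with quantile normalized values (black circles), values as deposited (orange squares) or median centred values (blue triangles), and a grey line joins the 3. PSMA5 runs from -0.15 to 1.01, while PSMC4, PSMD1, PSMB7, PSMD12 and PSME4 keep their sides of 0.

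Other genes of the pathway gave 0 members past the limma test, with or without the trend, in each of 5 lists. The antigen processing list also holds proteasome genes counted above. Of 9 measured genes that belong to the proteasome or act on it under other names, 4 were above 0 and 5 below (median -0.061). The name pattern did not take these genes, and the class counts above leave them out. The smallest p belonged to ZFAND5, which stimulates the proteasome, at -0.56 from a probe with a mean of 4.28, turning to 0.59 on values as deposited and 0.47 after median centring. POMP, the maturation factor of the core, was at 0.32, and the cap's ubiquitin receptor ADRM1 at 0.10, turning to -0.091 on values as deposited and -0.20 after median centring. Of 10 measured ubiquitin and shuttle factors, 4 were above 0 and 6 below (median -0.097). UBA6, an enzyme that activates ubiquitin, was at 1.13 (limma adjusted p = 0.301, SE 0.294) from a probe with a mean of 4.42, and at 2.76 on values as deposited. VCP, which unfolds ubiquitinated proteins, was at -0.31.

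Regulators of proteasome genes had the largest list median, 0.30 over 7 genes (0.42 on values as deposited and 0.31 after median centring), with 6 above 0. All 7 lay below the background reference, and their names had been chosen with earlier results of these samples known. MAFK, a small partner of the NFE2L factors, read 6.35 and 6.30 in the controls and 6.88 and 6.85 in the berberine samples, at 0.54 (limma adjusted p = 0.233). KEAP1, the repressor of NFE2L2, was at 0.40, MAFF at 0.30, NFE2L2 at 0.34, NFE2L1 at 0.20 and NFE2L3 at -0.31. None of these differences passed the test.

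Antigen processing shares the inducible subunits, and in the human annotation TAP1, a peptide transporter, lies between PSMB8 and PSMB9 in the order of protein-coding genes. TAP1 was at 0.17 and TAP2 at -0.33 (limma adjusted p = 0.409), beside -0.11 for PSMB8 and -0.21 for PSMB9. Of the 16 measured genes of that list 6 were above 0 and 10 below. The list repeats the members PSMB8, PSMB9, PSMB10, PSME1 and PSME2, of which only PSMB10 was above 0. The list median of -0.067 turned to 0.018 on values as deposited. The COP9 signalosome, a complex whose subunits resemble those of the lid, had 4 of 9 genes above 0 and a median of -0.036, which turned to 0.19 on values as deposited and 0.073 after median centring. COPS2 was at 0.95 (limma adjusted p = 0.213) from a dim probe, and COPS6, above the reference, at -0.58 (limma adjusted p = 0.367).

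PSMC3IP, which the name pattern also took, read 5.04 and 5.08 in the controls and 4.67 and 4.49 in the berberine samples. It was at -0.48 (limma adjusted p = 0.295), and at 0.15 on values as deposited. It enters none of the counts above.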

How the data were processed

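Cy5-labelled amplified RNA of 2 control and 2 berberine samples was hybridised to 1-colour arrays, per the labels. The authors deposited intensity values as whole numbers on a linear scale for 26423 probes, some below 0. Neither the scanner nor any background correction, normalization or software is named in the labels. The annotation gave 1 gene symbol to 20377 probes, and no others were used. Here, intensities were quantile normalized, values under 0 set to 0, and log2(value + 1) taken. Adding 1 narrows folds of dim genes, while normalization could enlarge or turn them. PSMB5 was at -0.66 after normalization and -0.34 on values as deposited, and ZFAND5 at -0.56 and 0.59. A gene was its probe with the highest mean. All 17778 genes were fitted with limma 3.58.1 in R 4.3.3 (2 residual degrees of freedom, 2-sided), with Benjamini-Hochberg adjustment at a threshold of 0.05. The fit was tested on simulated data. Figures used matplotlib 3.10.9 in Python 3.11.15. Members and lists were chosen with earlier results of these data known. Members of the smallest p, highest or lowest mean in a class, and those with several probes, were picked to be shown with values of all samples. Of these, PSMA5, PSMB1, PSMB8, PSMC6, PSMD5, PSMD6, PSME2, PSMF1, PSMG1 and PSMG4 are given without the value of each sample. PSMA1, PSMA8, PSMB4, PSMC2, PSMC3IP and PSME3 were added after their values were seen, and the remaining members are named with their fold change. Alternatives covered scaling, a filter, the pseudocount, the variance model, probes, the replicate number and each sample left out.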

Additional observations from a re-analysis of the deposited data

How the results depend on the processing

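The count of proteasome genes past the limma threshold was 0 under each alternative in scaling, filter, pseudocount, variance model, probes, replicate block or sample left out when 1 choice was altered. When the intensity trend was joined to the scaling or to a sample left out it was also 0, and with the trend and the replicate block together it was 1 (PSMB7, limma adjusted p = 0.0458). The smallest adjusted p ranged from 0.0458 to 1.0. A sample left alone in its group was assumed to vary like the other group. The replicate block alone gave 0, with a smallest adjusted p of 0.371. Deviations of samples with the same number correlated at 0.0904 across all genes and at 0.332 across the 1626 above the background reference, and with 2 pairs neither value shows that the numbers pair the samples. The cause of the changes below was not tested.

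The median log2 fold change of all members was -0.022 on values as deposited and -0.14 with median centring. On values as deposited it was -0.050 for beta genes, -0.0067 for ATPases, -0.0053 for other cap genes and -0.22 for assembly factors. With median centring it was -0.10 for alpha genes, -0.12 for ATPases and -0.33 for assembly factors. With a pseudocount of 50 it was -0.084 for beta genes and -0.046 for other cap genes.

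With each sample left out, medians ranged from -0.079 to -0.0082 for all members, -0.12 to 0.18 for alpha genes, -0.24 to -0.024 for beta genes, 0.0020 to 0.19 for ATPases, -0.11 to -0.011 for other cap genes, -0.30 to 0.00096 for activators and -0.19 to -0.062 for assembly factors. Members whose groups did not overlap numbered 28 to 34 of 46, beside 12210 to 13251 of all 17778 genes.

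Some named genes turned their sign, none past the threshold. On values as deposited PSMA5 was at 1.01, PSMB1 at 0.0062, PSMD6 at 0.57, PSME2 at 0.0094 and PSMG1 at 0.20. With median centring PSMA5 was at 0.90, PSMA6 at -0.10, PSMD6 at 0.45 and PSMG1 at 0.082. With the mean of its probes PSMD8 was at -0.14. With each sample left out PSMA5 ranged from -0.47 to 0.18, PSMB1 from -0.27 to 0.13, PSMD6 from -0.73 to 0.43, PSME2 from -0.36 to 0.025 and PSMF1 from -0.020 to 0.49. The count of members above the background reference was 13 and 8 with the 90th and 99th percentile. Signal limits most members, since 35 of 46 lay below the reference.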
